A study of Homo sapiens with 9 samples.

Results

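The regions described here are groups of neighbouring sites in the control m6A site list of HepG2 cells that both SETD2 knockdown lists leave empty. Sites of the 3 lists were pooled, chromosomes M and Y were left out, and same-strand sites with gaps of up to 1000 nt were chained into regions. A region was kept when it had 2 or more control sites and no site from either knockdown list. This gave 202 groups with 434 control sites, out of 3890 regions in all and 294 regions with 2 or more control sites. The 434 sites are 11.7% of the 3717 control sites used and carry 10.1% of their summed score. The groups were thus chosen by the measured lists themselves: that they are full in control and empty after knockdown is the choice and not a result.

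The cells were HepG2, an established line from a human hepatocellular carcinoma, infected with lentivirus and kept under puromycin selection. They carried either a non-specific control shRNA (shCtrl), shSETD2#1 (hairpin 1) or shSETD2#2 (hairpin 2), with 3 labelled replicates each and 9 samples in all. Each shRNA has 1 list that the labels assign to all of its replicates, and without separate replicates nothing here carries a replicate error or a test between conditions. Neither the SETD2 level nor HepG2 marker genes were analysed here, so the knockdown is taken from the labels. The knockdown lists are shorter than the control list, with 454 sites for hairpin 1 and 670 for hairpin 2 on the chromosomes used, and summed scores of 16902 and 43019 against 204464. At positions shared with control their scores were lower (the factors are given with the scaled scores), so depth and knockdown cannot be told apart. The series title speaks of miCLIP while the sample titles say m6A-seq, and the labels' protocol contains an m6A immunoprecipitation without a crosslinking step. In bulk RNA such as this, less of a transcript and less m6A on it cannot be told apart.

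N6-methyladenosine, or m6A, is a methyl group on adenosines inside mRNA. The METTL3 and METTL14 complex writes it, largely at the short DRACH sequence, and reader proteins such as the YTHDF family bind it and direct the decay, translation or splicing of the transcript. Within a transcript m6A often sits in clusters, most of all around stop codons and in long internal exons. SETD2 trimethylates lysine 36 of histone H3 along transcribed gene bodies, and the study asked whether m6A depends on it. Sites are given by chromosome and position of build hg19, 1-based. Genes, exons and the sequence around the sites were not analysed here, because no annotation or genome of that build was used.

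Most of the groups were pairs of sites. Of the 202 groups, 177 had 2 control sites, 20 had 3 and 5 had 4. The groups were short, with a median span of 280 nt (quartiles 94.2 and 569, lowest 9, highest 1312), and 55 spanned 100 nt or less. They lay on 22 of the 23 chromosomes used. Scores, read here as coverage, were moderate, with a median of 20 at the member sites. The score is a whole number given by the authors, who do not state its meaning. Its lowest value in any list was 3.

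The groups with the most sites show how the sites are laid out, so their sites are given one by one, from 5′ to 3′ along the strand. On chromosome 17, plus strand, the group at 80320985 to 80321484 had 4 control sites with scores of 126, 33, 23 and 33. Its best covered site was the 5′ one, and the next site lay 95 nt downstream. On chromosome 8, plus strand, the group at 37554727 to 37555147 had scores of 14, 37, 23 and 30. Its sites sat as 2 close pairs, the first 19 nt apart and the other starting 390 nt from the first site. On chromosome 1, plus strand, the group at 154987891 to 154989202 was the widest of all, at 1312 nt, and its scores were 3, 7, 79 and 12. Most of its coverage, 78.2%, lay at the third site.

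The 2 remaining groups of 4 sites were shallower. The group on chromosome 9 at 38396452 to 38397157 (plus strand) had scores of 3, 6, 52 and 32. The group on chromosome 19 at 39915183 to 39915537 (plus strand) had scores of 4, 12, 28 and 4. At none of these positions, nor within 1000 nt of them on the strand, did either knockdown list hold a site. A list holds no row for a position it does not report, so the knockdown reads at these positions are not known and are not given as 0.

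**Figure D1:**
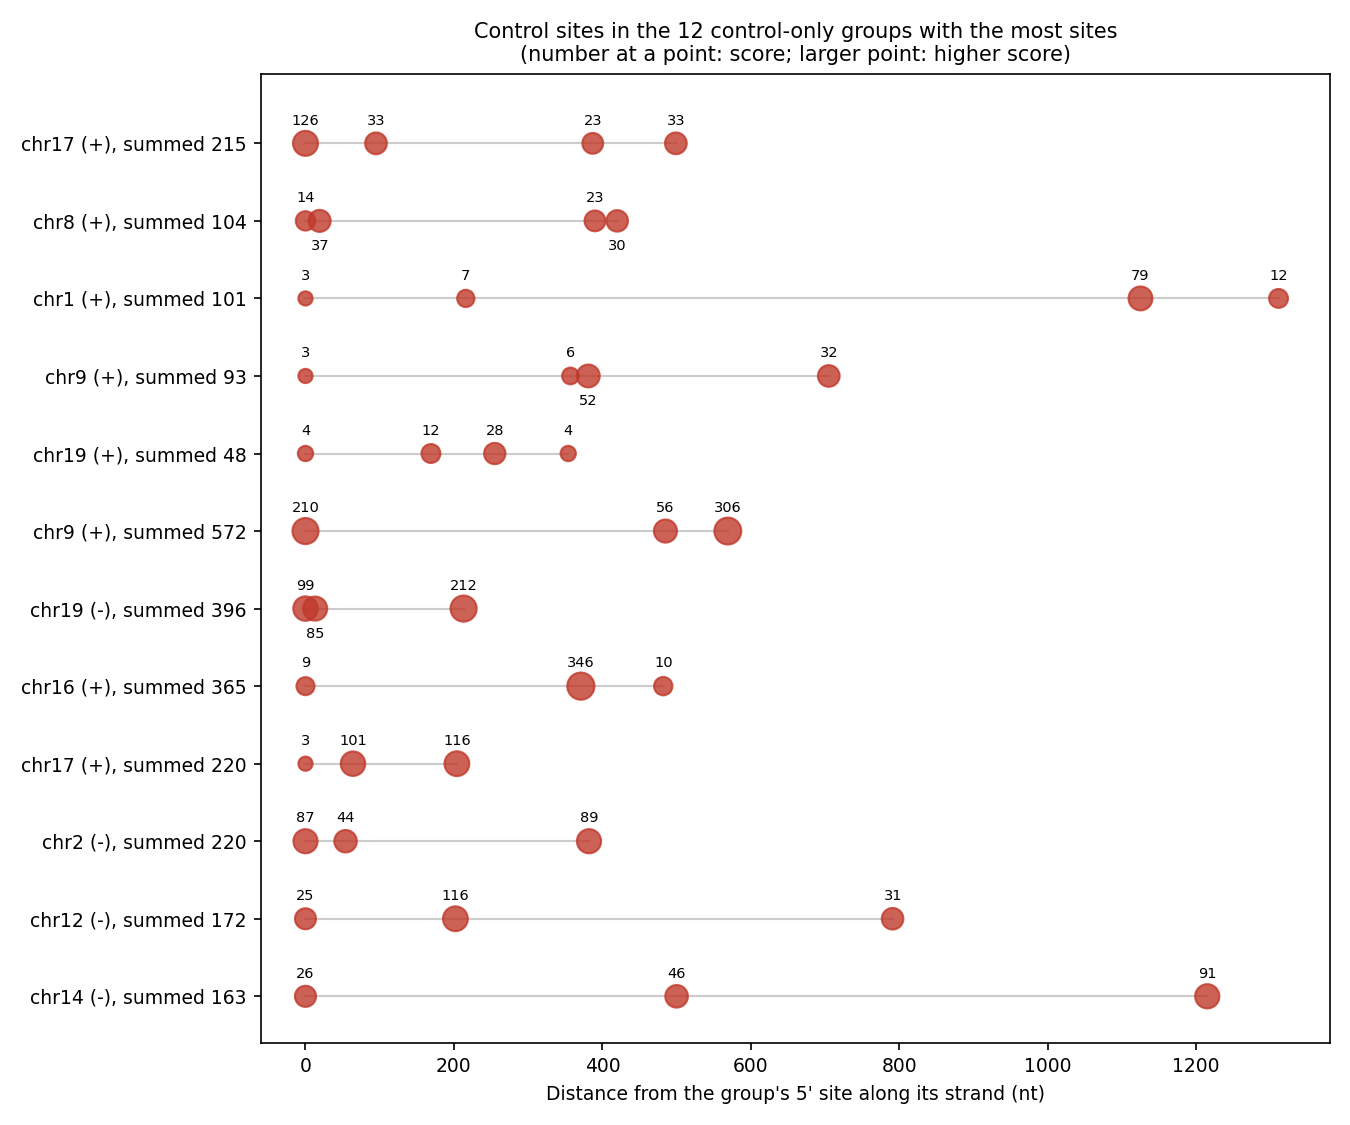
Control sites in the 12 groups with the most sites, each on its own row; the x axis is the distance in nt from the group's 5′ site along its strand, the number at each point is the site's score, and larger points have higher scores. The top 5 rows have 4 sites and the others 3; the widest, on chromosome 1, spans 1312 nt and the deepest, on chromosome 9, has a summed score of 572.

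The named groups of 3 sites differed in how evenly coverage was spread. The group on chromosome 9 at 116930706 to 116931275 (plus strand) had scores of 210, 56 and 306, a summed score of 572. The group on chromosome 19 at 47278627 to 47278840 (minus strand) had scores of 99, 85 and 212. On chromosome 2 the group at 178095957 to 178096339 (minus strand) was the most even of these, with scores of 87, 44 and 89. By contrast the group on chromosome 16 at 30735358 to 30735840 (plus strand) had scores of 9, 346 and 10, so 94.8% of its score lay at the middle site.

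The other groups of 3 sites among the 12 with the most sites were on chromosomes 17, 12 and 14. On chromosome 17 the group at 37884043 to 37884247 (plus strand) had scores of 3, 101 and 116. On chromosome 12 the group at 12630123 to 12630914 (minus strand) had scores of 25, 116 and 31. On chromosome 14 the group at 77493546 to 77494761 (minus strand) had scores of 26, 46 and 91. Their summed scores were 220, 172 and 163, against a median of 54 over all 202 groups.

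The 4 groups with the highest summed scores were pairs. The highest summed score, 1297, belonged to the group on chromosome 4 at 7032275 to 7033208 (plus strand), where 1 site had a score of 1293 and the other 4, the largest contrast of any group at 323-fold. The group on chromosome 7 at 104753752 to 104753795 (plus strand) had 585 and 429 at sites 43 nt apart. These 2 groups were the only ones with a summed score over 1000.

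In the other 2 of them both sites were deep. On chromosome 10, 77158400 to 77158657 (minus strand) had scores of 236 and 402, and on chromosome 11, 85195068 to 85195138 (plus strand) had 337 and 236. Ranked by summed score, the 3-site group on chromosome 9 described above (572) came next, ahead of a pair of uneven depth on chromosome 1 at 55316423 to 55316963 (minus strand), with scores of 472 and 8. The 3-site group on chromosome 19 (396) was seventh, and the pair on chromosome 22 at 33198040 to 33198085 (plus strand) was eighth, with 61 and 315. In 7 of the 202 groups every site had a score of 100 or more, in 60 every site had 20 or more, and in 17 every site was under 10.

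Whether a multi-site group was empty after knockdown varied with its size and depth. Of the 294 groups with 2 or more control sites, 68.7% had no site from either knockdown list. The share was 89.3% among the 3057 lone control sites and 87.5% over all 3351 regions with a control site. It was 72.8% of 243 groups of 2 sites, 58.8% of 34 groups of 3 and 38.5% of 13 groups of 4, and all 4 groups of 5 sites held a knockdown site. By depth, 92.0% of groups with a summed score of up to 25 were empty and 42.9% of those above 200. The choice of members uses the same lists, so these shares are given as a description and were not tested. More sites also add to the summed score, so the shares by size and by depth are not separate.

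**Figure D2:**
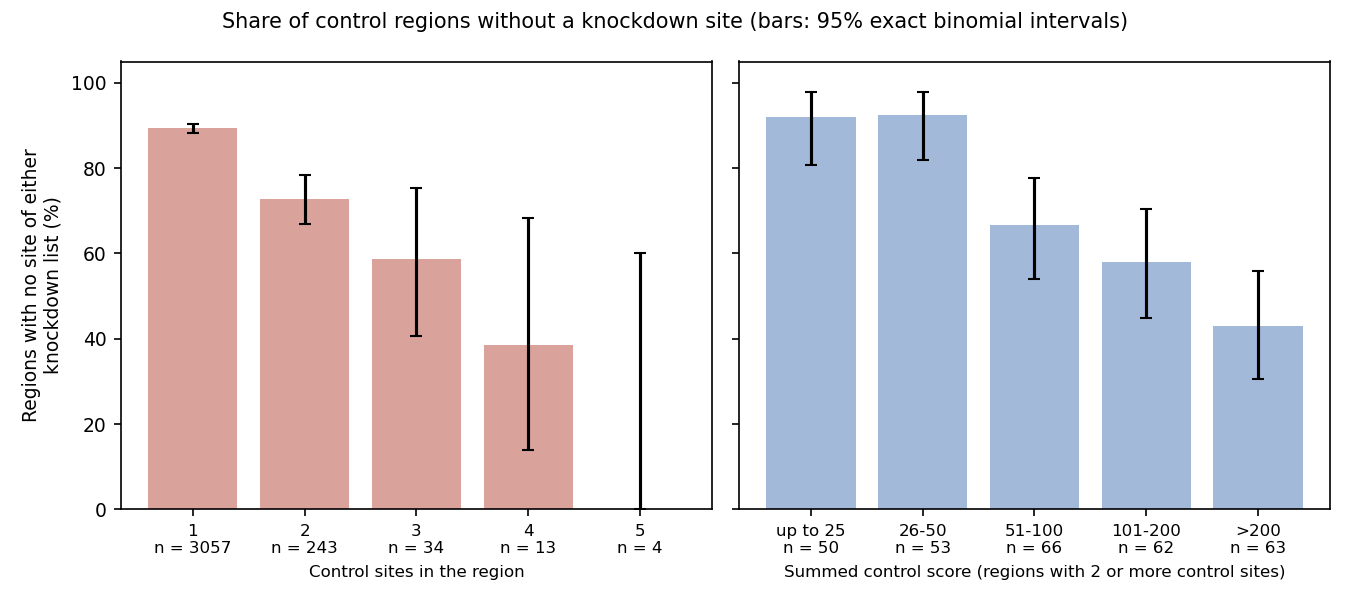
Percent of control regions with no site of either knockdown list, by number of control sites (left, lone sites included) and by summed control score (right, regions with 2 or more control sites); whiskers are 95% exact Clopper-Pearson intervals, which cover counting error only, and n is the number of regions. The share falls from 89.3% for lone sites to 0 of 4 for groups of 5, and from 92.0% to 42.9% across the summed scores.

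The 2 hairpins left similar numbers of groups empty when each was taken alone. Hairpin 1 had no site in 236 of the 294 groups and hairpin 2 none in 237. Of the 92 groups that held a knockdown site, 35 held sites of hairpin 1 only, 34 of hairpin 2 only and 23 of both. Most of these were only just outside the choice, since 66 of the 92 held exactly 1 knockdown site. Both comparisons use the same control list.

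At the edge of the choice, the nearest knockdown site decided membership. Just inside it, the pair on chromosome 8 at 17612111 to 17612155 (minus strand; scores 17 and 7 at its sites) had a hairpin 1 site of score 14 at a distance of 1049 nt. The pair on chromosome 3 at 195594371 to 195595340 (minus strand) had a hairpin 2 site of score 8 at 1387 nt, and the pair on chromosome 10 at 54074069 to 54074095 (plus strand) a hairpin 1 site of score 20 at 2609 nt. The next were a pair on chromosome 17 at 38278772 to 38279436, with a knockdown site at 6939 nt, and one on chromosome 6 at 155578222 to 155578678, at 7586 nt. The summed control scores of these 5 pairs ran from 13 to 43, all below the median of 54.

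Just outside the choice were 66 groups with exactly 1 knockdown site, of which the 5 with the most control sites, and then the highest summed score, are given. The group on chromosome 19 at 1555770 to 1556340 (minus strand) had control scores of 133, 263, 161 and 7, and hairpin 2 listed the first of these positions with a score of 34. On chromosome 14 the group at 50088153 to 50089380 (plus strand) had control scores of 94, 118, 156 and 19, with a hairpin 2 score of 85 at the third site. On chromosome 15 the group at 34522077 to 34522272 (plus strand) had 57, 14, 280 and 9, with a hairpin 1 score of 50 at the third.

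The knockdown site fell on the deepest control site in 4 of these 5 groups, the first being the exception. On chromosome 19 at 40738988 to 40739154 (minus strand) the deepest site went from 399 in control to 21 with hairpin 2, and on chromosome 2 at 171573907 to 171574162 (plus strand) from 349 to 22 with hairpin 1. The summed control scores of the 5 groups ran from 360 to 628, and since they were picked by size and depth they are not set against the pairs above.

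Away from this edge, most groups lay far from any knockdown site, but the knockdown lists are sparse, with 454 and 670 sites on the chromosomes used. The choice also sets a lower limit on the distance to a knockdown site. The distances were not set against those of lone control sites, so they are not read as a trait of these groups. The median distance to the nearest knockdown site on the strand was 1045318 nt (quartiles 213161 and 2947720), and 3 of the 202 groups had one within 5000 nt, 6 within 10000 nt and 19 within 50000 nt. Of the 202 groups, 27 had another control site within 5000 nt on the strand and 36 within 10000 nt. The control list was longer than either knockdown list, so these counts are not set against those for knockdown sites.

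In 4 cases 2 such groups followed each other within 5000 nt on a strand. On chromosome 2 (plus strand) the groups from 109382419 and from 109383463 were 1032 nt apart, just over the limit that would have joined them, with summed scores of 180 and 80. On chromosome 8 (minus strand) those from 17764564 and from 17766326 were 1170 nt apart, with 9 and 103. On chromosome 3 (plus strand) those from 141162032 and from 141163999 were 1635 nt apart, with 79 and 254. On chromosome 12 (plus strand) those from 53431275 and from 53434085 were 2801 nt apart, with 192 and 88.

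Compared with other control sites, the members were of middling depth. Their score had quartiles of 9 and 50.8 around the median of 20, and ran from 3 to 1293. Control sites in groups that held a knockdown site had a median of 60 (quartiles 20.2 and 128), and lone sites with no knockdown site within 1000 nt had a median of 10 (quartiles 5 and 29). Scores under 10 made up 26.5% of member sites, 14.6% in the groups that held a knockdown site and 47.1% of those lone sites. The median score was 14 over all control sites and 54 at lone sites with a knockdown site near, where scores under 10 made up 39.7% and 12.8%. Depth differed between the lists and so is not independent of the choice, and these differences were not tested.

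**Figure D3:**
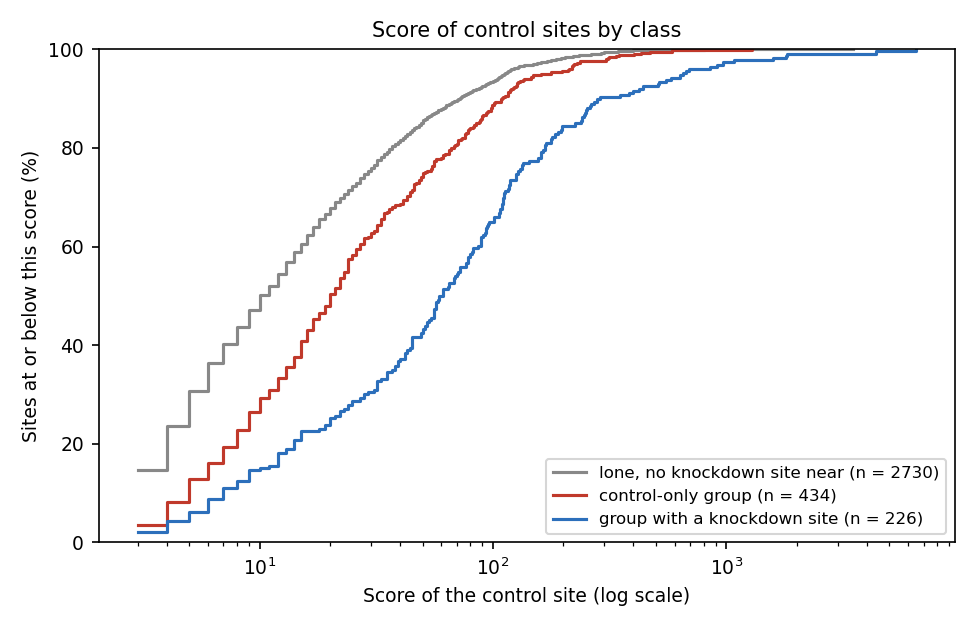
Cumulative percent of control sites (y axis) at or below each score (x axis, log scale) for sites of control-only groups, of groups that held a knockdown site, and for lone sites with no knockdown site near. The member sites, with a median of 20, run between the lone sites (median 10) and the sites of groups that held a knockdown site (median 60).

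How far the scores could have fallen and still be listed was set against the fall at shared sites. At nuclear positions listed in control and knockdown alike, the control score was at the median 7 times that of hairpin 1 (209 sites) and 4.53 times that of hairpin 2 (231 sites). Divided by these factors, 50.5% of the member sites would come to under 3, the lowest score in any list, with hairpin 1, and 35.5% with hairpin 2. In the groups that held a knockdown site the shares were 25.2% and 19%. By group, 141 of the 202 (69.8%) would still have a site at 3 or more with hairpin 1 and 172 (85.1%) with hairpin 2, against 87 (94.6%) and 89 (96.7%) of the 92 others. Far fewer kept such a site when it also had to keep at least 1 C-to-T read (reconstructed below) after the same division. Of the 202 groups these were 15 (7.43%) with hairpin 1 and 35 (17.3%) with hairpin 2. Of the 92 others they were 39 (42.4%) and 57 (62%). The factors come from sites that stayed listed, and the fall at positions missing from the knockdown lists is not known.

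The number of reads with a C-to-T change, the kind of change that the lists are named for, was small at the member sites. It was reconstructed from the running numbers in the site names. These were read as an order by a binomial probability of the changed reads given the score, which the sources used here do not state. A fitted rate of 1.57% allowed all 3755 control sites to be placed in such an order. The reconstruction gives 1 possible number at all 434 member sites, and reads the score as the number of reads over the site. A single changed read lay under 47.2% of member sites (interval 42.5 to 52.1) and 3 or more under 33.4% (29.0 to 38.1). Over all control sites the shares were 41.6% and 39.1%, and in the groups that held a knockdown site 29.1% and 51.1%. The median share of reads changed was 8.33% at member sites (quartiles 3.47 and 20%), 5.05% in the groups that held a knockdown site and 13.3% over all control sites. The binomial probability at the fitted rate was under 0.05 at 169 of the 434 member sites (38.9%). That share was 40.4% in the groups that held a knockdown site and 50.1% over all control sites. A site could thus be listed as m6A without a probability under 0.05. In 48 of the 202 groups every site rested on a single changed read, in 58 every site had 2 or more and in 23 every site had 3 or more. Intervals are 95% exact Clopper-Pearson intervals for counting error only, and neighbouring sites can share reads.

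At similar coverage, changed reads at member sites and in the groups that held a knockdown site were set side by side within ranges of score. The intervals for a single changed read overlapped in every range, which does not show that the shares were alike. Between scores of 50 and 99, 55.6% of 63 member sites had a single changed read (interval 42.5 to 68.1), against 29.4% of 51 sites in the other groups (17.5 to 43.8) and 46.6% of 223 lone sites with no knockdown site near (39.9 to 53.4). Between 10 and 19 the shares were 52.7% of 93 (42.1 to 63.1), 28.6% of 21 (11.3 to 52.2) and 49.3% of 529. Between 20 and 49 they were 46.5% of 114 (37.1 to 56.1), 35.7% of 42 (21.6 to 52) and 47.3% of 497. At 100 and above they were 14.3% of 49, 10.5% of 76 and 27.1% of 177, while 3 or more changed reads were found at 81.6% (68 to 91.2), 69.7% (58.1 to 79.8) and 50.8% of these sites. Under 10 they were 53.0% of 115, 63.6% of 33 and 41.2% of 1285. For 3 or more changed reads, the intervals of member sites and of the other groups did not overlap between scores of 50 and 99. There the shares were 19% of member sites (10.2 to 30.9), 54.9% in the other groups (40.3 to 68.9) and 32.7% of the lone sites. In the remaining ranges these intervals overlapped. The number of changed reads belongs to the control list that the choice used, and these differences were not tested.

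The groups with the most changed reads were a mixed set. The deep chromosome 4 pair led with 26 changed reads, 23 of them at its site of score 1293, a share of 1.78% that lies near the fitted rate. The chromosome 11 pair at 85195068 to 85195138 had 22, with shares of 5.04% and 2.12%. The 4 sites of the chromosome 19 group at 39915183 to 39915537 had 4, 4, 11 and 2 changed reads, shares of 100%, 33.3%, 39.3% and 50%, on a summed score of 48.

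The next 2 by changed reads contrasted in the same manner. The pair on chromosome 9 at 22155326 to 22155419 (plus strand) had 10 of 101 and 8 of 21 reads changed, 9.90% and 38.1%. The pair on chromosome 10 at 77158400 to 77158657 had 17 changed reads with shares of 2.54% and 2.74%. In the chromosome 17 group at 37884043 to 37884247, 13 of the 15 changed reads lay at its 3′ site, a share of 11.2%, and the middle site had 1 changed read at a score of 101.

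**Figure D4:**
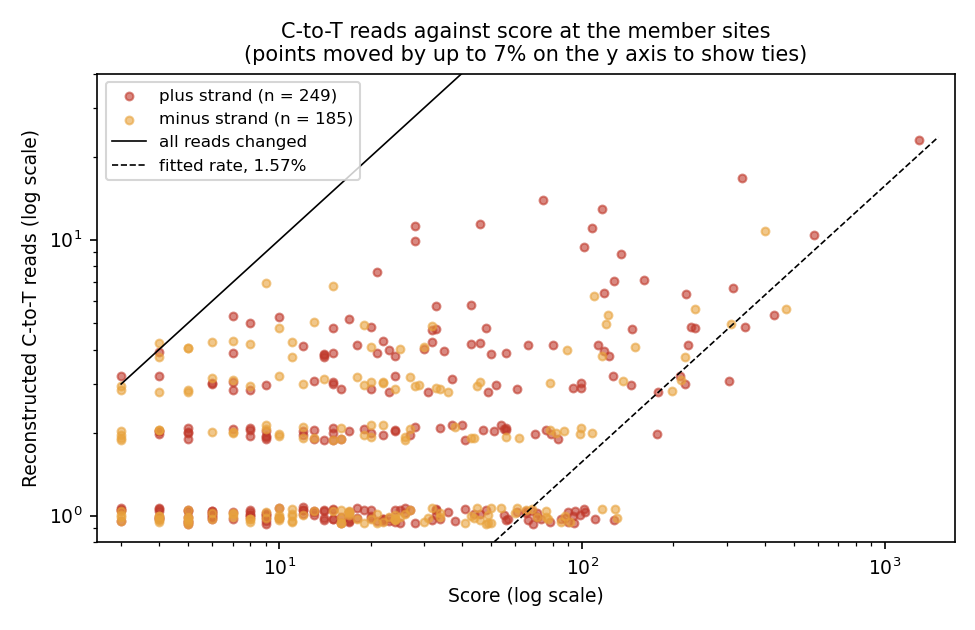
Reconstructed C-to-T reads (y axis, log scale) against score (x axis, log scale) at the 434 member sites, coloured by strand; the solid line is every read changed and the dashed line the fitted rate of 1.57%, and points are moved slightly on the y axis to show ties. Most points lie at 1 to 3 changed reads, and the highest is the chromosome 4 site with 23 of 1293.

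Sites at which nearly every read was changed were scarce in the groups. A C-to-T share of 90% or more was found at 6 of 434 member sites, or 1.38% (interval 0.509 to 2.98), and at 2 of 223 sites in groups that held a knockdown site, 0.897% (0.109 to 3.20). Among lone control sites with no knockdown site near it was found at 397 of 2711, or 14.6% (13.3 to 16%), and among lone control sites with a knockdown site near at 11 of 304, or 3.62% (1.82 to 6.38). The empty groups were thus close to the groups that held a knockdown site and below the lone sites with no knockdown site near. Their interval overlapped that of the lone sites with a knockdown site near. Coverage was lower at the lone sites with no knockdown site near, so the shares were also set side by side at like scores. At a score of 3, 3 of 15 member sites (20%, interval 4.33 to 48.1) had such a share, against 195 of 400 of those lone sites (48.8%, 43.8 to 53.8). At a score of 4 it was 3 of 21 (14.3%, 3.05 to 36.3) against 79 of 247 (32%, 26.2 to 38.2). At a score of 5 it was 0 of 20 (upper bound 16.8%) against 43 of 192 (22.4%, 16.7 to 29). At scores of 6 to 9 it was 0 of 59 (upper bound 6.06%) against 61 of 446 (13.7%, 10.6 to 17.2). The intervals overlapped at scores of 3, 4 and 5 and did not at 6 to 9.

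In pairs, the scores of close sites were more alike at the median than those of sites further apart. In the 34 pairs whose sites lay within 50 nt, the higher score was at the median 1.18 times the lower. It was 3.36 times in the 48 pairs at 51 to 200 nt, 2.54 times in the 46 pairs at more than 200 and up to 500 nt and 2.67 times in the 49 pairs further apart. Pairs of groups that held a knockdown site gave 1.14 within 50 nt (13 pairs), 4.08 at 51 to 200 nt (20 pairs), 6.05 at up to 500 nt (20 pairs) and 2.78 beyond that (13 pairs). Close sites can be covered by the same reads, whose length is not given in the sources used here.

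**Figure D5:**
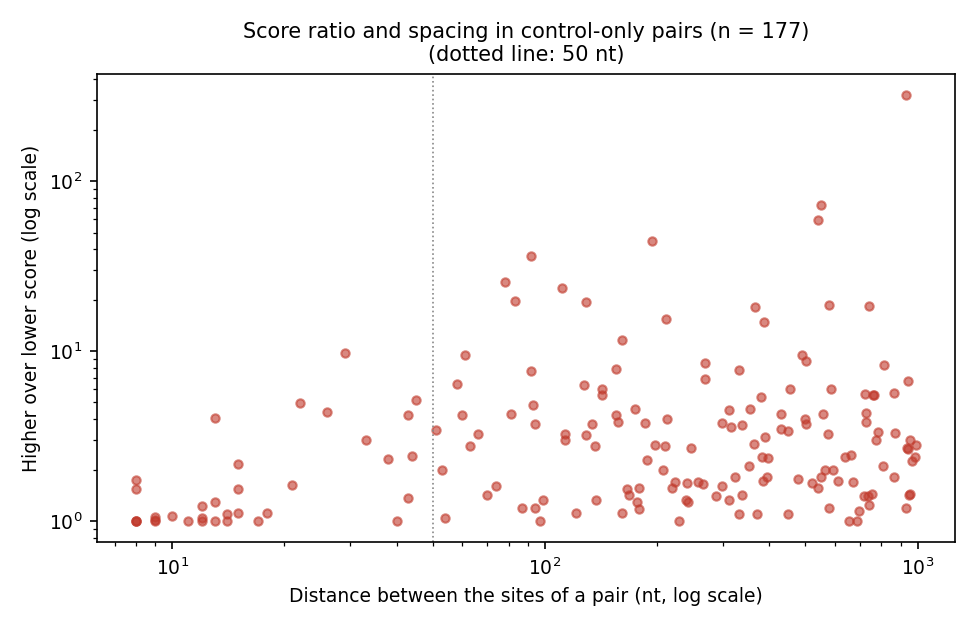
Ratio of the higher to the lower score (y axis, log scale) against the distance between the 2 sites in nt (x axis, log scale) for the 177 control-only groups of 2 sites; the dotted line marks 50 nt. Left of the line the ratios lie mostly near 1 (median 1.18), and the highest, 323, belongs to the chromosome 4 pair.

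Spacing itself was much the same with and without a knockdown site. The median distance between neighbouring control sites was 214 nt over 232 distances in the empty groups and 240 nt over 134 in the others. Distances of up to 20 nt made up 10.8% (interval 7.10 to 15.5) and 11.2% (6.40 to 17.8), and those of up to 100 nt 31.0% (25.1 to 37.4) and 28.4% (20.9 to 36.8). No 2 control sites lay closer than 8 nt. Along the strand, the 5′ site of a control-only pair had the higher score in 91 of 177 pairs, the 3′ site in 72 and neither in 14, an interval of 43.8 to 59.0% for the 5′ site with ties counted among the pairs. In pairs of groups that held a knockdown site it was the 5′ site in 27 of 66, the 3′ site in 37 and neither in 2. The interval for the 5′ site there was 29 to 53.7%, and the difference was not tested.

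By chromosome, the groups were most frequent on chromosomes 19, 17 and 20. Chromosome 19 held 23 of the 202 groups (11.4%, interval 7.36 to 16.6), and chromosomes 17 and 20 held 20 each (9.90%, 6.15 to 14.9). Of all 294 groups with 2 or more control sites, chromosome 19 held 11.6%, chromosome 17 held 9.52% and chromosome 20 held 8.5%. Their shares of the 202 were thus near their shares of all multi-site groups. Chromosome 20 stood out against its share of control sites, which was 3.95%: 41 of its 147 control sites, or 27.9%, belonged to these groups. For chromosome 19 it was 50 of 271 (18.5%), for chromosome 7 it was 36 of 192 (18.8%) and for chromosome 22 it was 19 of 100 (19%), against 11.7% over all. Chromosome 1, with 315 control sites, had 8 groups, which took in 6.35% of its sites, and chromosome 13, with 57, had none.

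Chromosome 20 held 25 of the 294 groups with 2 or more control sites (8.5%), of which 20 were empty after knockdown, or 80.0% against 68.7% over all. The share was higher on chromosome 5 (7 of 7), X (3 of 3), 7 (16 of 18) and 12 (9 of 11), and lowest, beside chromosome 13 with 0 of 1, on chromosome 6 (4 of 10). On chromosomes 19 and 22, whose shares of sites in these groups were above the 11.7% over all, 67.6% and 60% of the multi-site groups were empty. Neither was above the 68.7% over all, and chromosome 22 held 5.1% of the multi-site groups with 2.69% of the control sites. These chromosome counts are small and were not tested.

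The groups lay on both strands, 115 on the plus and 87 on the minus strand, where 51.8% of the control sites used were on the plus strand. More than 10 changed reads in all were found in 16 groups of the plus strand and 1 of the minus strand. The same count for the groups that held a knockdown site is not given here, so it is not read as a trait of these groups. The median number per group was 5 on the plus and 4 on the minus strand. Plus-strand groups were also deeper, with a median summed score of 68 against 46, and the part of this in the counts by strand was not tested. Of the 202 groups, 15 had a site that would keep a score of 3 and at least 1 changed read after division by both factors above, and 14 of these 15 were on the plus strand. Among the 92 groups that held a knockdown site the same was true of 39, with 20 on the plus strand and 19 on the minus strand. The strand counts were looked at after the values were seen and were not tested. Of the 202 groups, 1 had a site of any list on the opposite strand within 1000 nt.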

How the data were processed

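HepG2 cells with 1 of 3 shRNAs were profiled for m6A, 3 replicates each. The deposited lists, 1 per shRNA, hold sites of 1 nt and a score, whose meaning the authors do not state; per the labels all replicates of a group share a list. Site names carry rbsSeeker and CT, per the file contents. Build hg19, Bowtie 1.1.2, cutadapt 1.13 and FastQC 0.11.5 are listed in the submitters' processing notes. The caller's version, its filters and the way replicates were combined were not given in the sources used here. Library depth was not used here.

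Sites were chained by script (Python 3.11.15, numpy 2.4.6, scipy 1.17.1, pandas 2.3.3, matplotlib 3.10.9). Changed reads were reconstructed from the running numbers and scores, with 1 possible value at 98.6% of control sites, and the lower bound was used elsewhere in sums. Both steps were run on simulated lists, ordered by the same binomial probability that the reconstruction assumes. That checks the code, not whether the deposited order follows this probability or the score counts reads. With 1 list per group no test between conditions was made; shares have 95% exact Clopper-Pearson intervals. Groups named are the 12 with most sites, the 8 with the highest summed score, the 5 with most changed reads, the 5 nearest a knockdown site and 5 just outside. Members and rules were chosen with earlier results of these data known. The motif and gene comparisons planned were not run, as no hg19 genome or annotation was used.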

Additional observations from a re-analysis of the deposited data

How the results depend on the processing

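No paired analysis was possible because each shRNA has 1 pooled list, and for the same reason no replicate could be left out. Of 72 values under 12 other settings, 47 stayed within 1.5 times the count, or within the exact 95% interval of the median or share. Motif windows were not run. The number of groups was 156 to 280 for gaps of 500 to 5000 nt. The limit on the gap set the median span and spacing: 176 and 142 nt at 500 nt, 391 and 328 nt at 2000 nt, 616 and 488 nt at 5000 nt. The median score was 24 with scores of 5 or more, 33 with 10 or more and 23.5 when only hairpin 1 had to be empty. Asking for 3 control sites left 25 groups with 80 sites, a median score of 28 and a median span of 500 nt. After seeing the data the control list was also shortened to the 670 sites of hairpin 2. With its highest scores, 21 of 52 groups were control-only (40.4%), with 43 sites, a median score of 101, a span of 44 nt, a spacing of 32 nt and 34.9% single changed reads. With its lowest running numbers, 2 of 5 groups were, with 4 sites, a median score of 4, a span and spacing of 132 nt and 0% single changed reads. In the reconstruction the lowest running numbers have the lowest binomial probability, so this last share was set by the cut. The 202 groups are thus a count at the full length of the control list.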

Other observations

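The same rule turned around gave few groups. Of 17 regions with 2 or more hairpin 1 sites, 4 had no control site (23.5%, interval 6.81 to 49.9), and of 17 with 2 or more hairpin 2 sites, 2 had none (11.8%, interval 1.46 to 36.4). The lists behind these numbers held 454 and 670 sites against 3717 in control, so the counts are not comparable with the 202 of 294 in control. Whether the difference in list length accounts for them was not tested.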
